A study of Homo sapiens with 2 samples.

Results

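The genes described here are the replication-dependent histone genes, in their clusters on chromosomes 1, 6 and 12. They were taken from RefSeq on GRCh38.p14 as protein-coding genes whose symbols follow the pattern of the H1, H2A, H2B, H3 and H4 cluster genes, and 69 of 20037 protein-coding genes did so. The data are 2 lists of peaks from chromatin immunoprecipitation followed by sequencing in NB4, a cell line from acute promyelocytic leukemia in which PML is fused to RARA. The first list came from the antibody ab21061 and the second from sc8558. Each is labelled as raised against GFI1, each had 1 library without a replicate, and the cells carried no stated treatment beyond formaldehyde fixation. The labels conflict in places, since the immunoprecipitation protocol names antibodies to PML/RARα and the sc8558 sample title reads GFI2, and the antibody labels were followed here.

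GFI1 is a zinc-finger repressor of blood cells that binds DNA sites built around the letters AATC and recruits histone-modifying enzymes such as LSD1 and histone deacetylases. Replication-dependent histone genes are short, mostly intronless genes that supply the nucleosome core histones H2A, H2B, H3 and H4 and the linker histone H1 while DNA is copied. Their messages end in a stem-loop bound by SLBP instead of a poly(A) tail, and their transcription gathers with the coactivator NPAT at nuclear histone locus bodies. Many H2A and H2B genes stand in divergent pairs that share a promoter.

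The ab21061 list held 7687 peaks and the sc8558 list 7562, with 4853 regions shared between them by at least 1 bp of overlap. Each peak carries a score that the authors' peak caller assigned, which on the MACS scale is higher where the p-value of the peak is lower. Scores are read only within their own list, where they reached 3100. The sequencing depth is unknown. With 1 library for each antibody no test was possible, so the values describe these libraries, and intervals cover counting error only.

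Sequence is shown first for the 4 gene starts with an available sequence that a peak reached, because there the data bear on a histone promoter itself. Each is the 250 bases before the RefSeq start on GRCh38.p14, read 5′ to 3′ in the direction of transcription, and capitals mark AATC or its complement GATT. H4C2, an H4 gene, lies on the minus strand with its window at chr6:26027284-26027533, and was reached by both antibodies. H3C6, an H3 gene, lies on the plus strand with its window at chr6:26223928-26224177, and was also reached by both. H4C4, an H4 gene on the minus strand, has its window at chr6:26189113-26189362 and was reached with sc8558. H3C13, an H3 gene on the minus strand, has its window at chr1:149813694-149813943 and was reached with ab21061. H4C3, an H4 gene that an sc8558 peak covered whole, had no start sequence available and is not shown.
H4C2: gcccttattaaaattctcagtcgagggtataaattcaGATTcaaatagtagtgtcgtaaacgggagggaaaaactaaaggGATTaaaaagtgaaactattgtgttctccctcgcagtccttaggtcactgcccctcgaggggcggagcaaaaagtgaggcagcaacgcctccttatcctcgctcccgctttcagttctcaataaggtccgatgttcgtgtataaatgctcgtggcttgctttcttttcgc
H3C6: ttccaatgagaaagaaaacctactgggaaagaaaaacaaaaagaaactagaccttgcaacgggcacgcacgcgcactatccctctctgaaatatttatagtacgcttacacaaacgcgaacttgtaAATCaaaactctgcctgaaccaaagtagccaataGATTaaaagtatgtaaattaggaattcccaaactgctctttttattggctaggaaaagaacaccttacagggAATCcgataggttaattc
H4C4: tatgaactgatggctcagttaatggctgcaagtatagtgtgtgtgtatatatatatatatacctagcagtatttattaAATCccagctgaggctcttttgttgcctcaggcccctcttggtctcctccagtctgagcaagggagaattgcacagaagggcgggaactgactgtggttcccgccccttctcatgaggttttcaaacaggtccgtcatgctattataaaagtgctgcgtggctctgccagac
H3C13: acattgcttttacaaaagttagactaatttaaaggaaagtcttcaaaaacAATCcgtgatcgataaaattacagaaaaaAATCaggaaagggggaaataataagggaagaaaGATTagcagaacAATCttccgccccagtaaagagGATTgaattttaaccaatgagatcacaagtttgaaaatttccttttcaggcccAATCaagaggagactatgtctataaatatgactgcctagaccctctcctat

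AATC, searched on both strands, occurred 2 times in the H4C2 window, 3 times in that of H3C6, 1 time in that of H4C4 and 6 times in that of H3C13. These counts are for whole windows and not for the part under a peak. In H4C2 the sc8558 peak ended at 26027318, close to the start, and held neither match. The ab21061 peak ended at 26027495, at the edge of the match farther from the start, and covered the nearer match. The letters AATC are common. They were found in 68 of 68 windows of histone genes (64 of the 69 genes had an entry, some with more than 1 start) and in 61.5% of 22199 windows of all protein-coding genes. The median number of matches per window was 3 in histone genes and 1 in all genes. Histone windows were poorer in G and C, with a median of 42.6% against 62.0% in all genes. Of 222 matches in histone windows, 96 (43.2%) overlapped a CCAAT box, another promoter element, against 17.7% of matches in all windows. CCAAT was in 85.3% of histone windows and 32.7% of all windows. The longer GFI1-type string AATCACNGC was in 4 of 68 histone windows (5.88%), against 0.887% of all windows. Those 4 belonged to H1-1, H1-4, H1-6 and H3C1, each match overlapped a CCAAT box, and none was in the 4 sequences printed above. The other strings were also searched on both strands. TATAAA was matched in all 4 printed sequences, in 66.2% of histone windows and in 9.0% of all windows. In H3C6 the only match was the complement TTTATA, so the printed strand does not read TATAAA there. The octamer ATTTGCAT, known from H2B promoters, was in 15 of 20 H2B windows and 11 of 16 H2A windows, and in none of the 4 printed. It was in 39.7% of histone windows and 1.59% of all windows. AAACACA, known from H1 promoters, was in 6 of 6 H1 windows and in no other histone window, 8.82% of histone windows against 3.79% of all windows. A match to these letters is a description and not a binding site.

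Of the 69 histone genes, 22 had a shared region with its midpoint in the gene or within 10 kb. That is 31.9% (exact 95% interval 21.2 to 44.2), where 12.8% of all protein-coding genes had one. With ab21061 alone there were 27 genes, 39.1% against 17.4% of all genes. With sc8558 alone there were 26, or 37.7% against 17.8%. Histone genes stand close together and share peaks, so few places lie behind these counts. The 27 genes drew on 12 distinct ab21061 peaks, the 26 on 11 distinct sc8558 peaks, and the 22 on 8 distinct shared regions. A single region at H4C2 was counted for 6 genes. The genes are therefore not independent of each other, and the interval above is too narrow.

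The gap between histone genes and all genes depended on the window. Within 1 kb of the gene, 4 of 69 histone genes (5.80%) had a shared region, against 9.53% of all genes, so the order was the opposite of that at 10 kb. Within 5 kb the share was 15.9% of histone genes and 11.2% of all genes. For ab21061 peaks alone the shares were 7.25% of histone genes and 13.1% of all genes within 1 kb, and 24.6% and 15.3% within 5 kb. For sc8558 peaks alone they were 8.70% and 13.3% within 1 kb, and 21.7% and 15.6% within 5 kb. When both lists were limited to scores from 100 upward, shared regions were found for 5.80% of histone genes and 4.67% of all genes within 1 kb, 13.0% and 5.56% within 5 kb, and 23.2% and 6.29% within 10 kb. Under that limit ab21061 peaks within 10 kb were found for 29.0% of histone genes and 8.41% of all genes, and sc8558 peaks for 23.2% and 8.33%. Histone genes are short, with a median span of 494 bp against 24.1 kb for all protein-coding genes, so a narrow window holds far less DNA for them. Per length of DNA the windows of 10 kb held 21.1 ab21061 peaks per Mb in histone genes (exact Poisson 95% interval 10.9 to 36.8) and 2.90 per Mb in all protein-coding genes. The sc8558 values were 19.3 per Mb (9.64 to 34.5) in histone genes and 2.90 per Mb in all genes. Shared regions ran at 14.04 per Mb (6.06 to 27.7) in histone genes and 1.88 per Mb in all genes. The rate in histone gene windows was 7.48-fold higher. Histone windows are mostly flank and those of all genes mostly gene interior, so these rates are not matched for closeness to a start. At promoters, described below, a shared region overlapped 3.12% of histone genes with a start entry and 2.12% of all such genes. In windows of 1 kb, where 4 shared regions remained for histone genes, the rate was 18.9 per Mb (5.14 to 48.3) in histone genes and 1.84 per Mb in all genes. The share and the rate thus gave opposite orders at 1 kb.

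**Figure D1:**
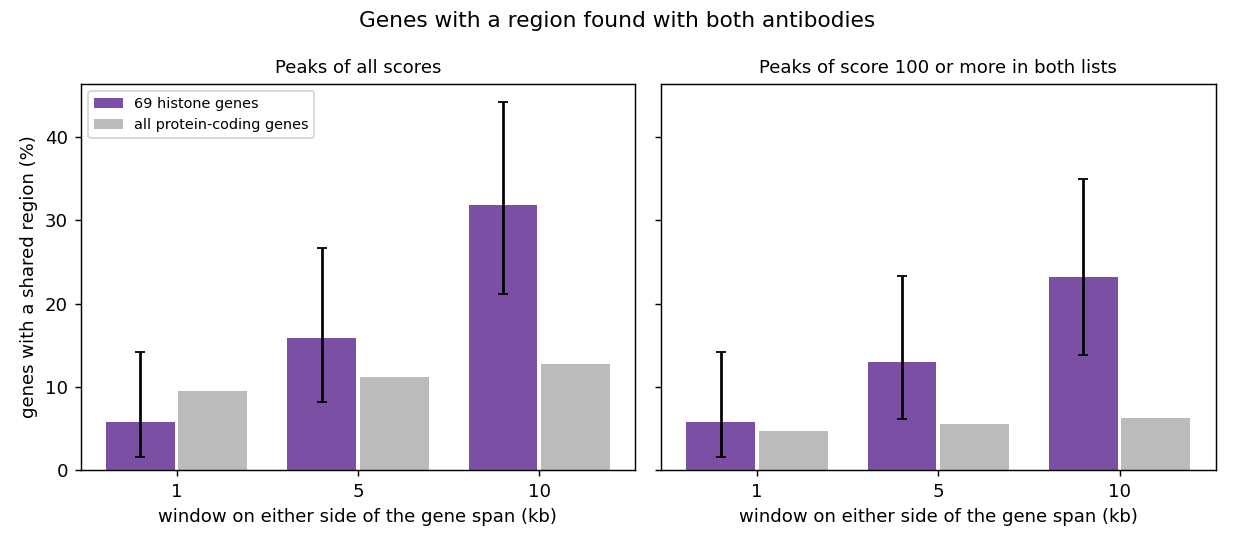
The share of genes (%, vertical axis) with a shared region, for 69 histone genes and for all protein-coding genes, at windows of 1, 5 and 10 kb (horizontal axis), for all scores and for scores of 100 or more. Bars on the histone genes are exact 95% intervals, which treat neighbours as independent. At 1 kb and all scores the histone share of 5.80% lies below the 9.53% of all genes, and at 10 kb the histone share of 31.9% lies above 12.8%.

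Peaks of both lists were found in 2 of the 4 clusters, taking genes under 1 Mb apart on a chromosome as a cluster. On chromosome 1, the cluster of 11 genes from 149782689 to 149887965 had 5 ab21061 peaks, 4 sc8558 peaks and 3 shared regions. The chromosome 6 cluster of 55 genes from 25726063 to 27893891 had 7 peaks of each list in its gene windows and 5 shared regions. The pair H2AC25 and H2BC26 further along chromosome 1, from 228457364 to 228458558, had 0 peaks of either list. So had H4C16, the lone H4 gene on chromosome 12. The windows of these last clusters covered 0.0212 and 0.0204 Mb, against 0.122 and 0.406 Mb for the clusters with peaks. At the all-gene rates of 2.90 peaks per Mb such small windows would seldom hold a peak, so their lack of peaks is uninformative.

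On chromosome 6 the peaks lay toward one side. With a limit of 0.3 Mb between neighbours the cluster fell into blocks of 34, 5 and 16 genes. The first block, up to 26285534, held all 5 shared regions, and 17 of its 34 genes had one in their window. The middle block, from 27132316 to 27147562, with H2BC11, H2AC11, H2BC12, H4C9 and H2AC12, had 0 peaks of either list. The last block of 16 genes, from 27807479 to 27893891, had 1 ab21061 peak, 0 sc8558 peaks and 0 shared regions. That peak scored 55.7, rank 6524 of 7687, and lay 1516 bp beyond H2BC17. The windows of the middle and last blocks covered 0.035 and 0.100 Mb, against 0.271 Mb for the first. At the all-gene rates of 2.90 peaks per Mb, windows of these sizes would more often lack a peak of a given list than hold one. The first block had 22.2 ab21061 and 25.9 sc8558 peaks per Mb. The middle block had 0 of each, and the last had 9.98 ab21061 and 0 sc8558 peaks per Mb. The difference between blocks was not tested.

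**Figure D2:**
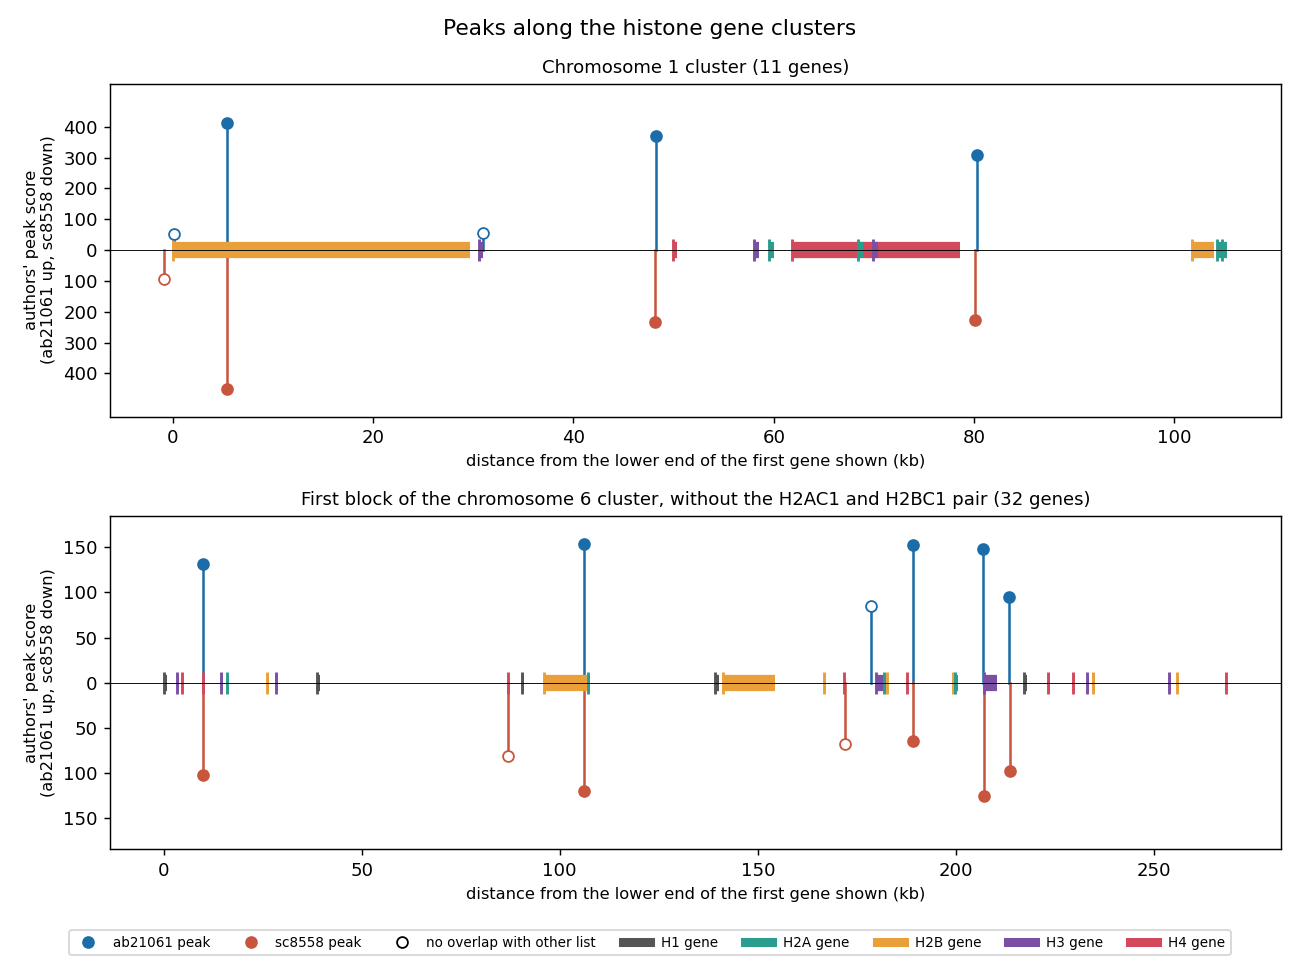
Peaks along the chromosome 1 cluster and the first block of the chromosome 6 cluster. The horizontal axis is the distance (kb) from the lower end of the first gene shown, coloured bars are genes by histone family, and stems give the authors' peak score, ab21061 upward and sc8558 downward, with open circles for peaks without overlap in the other list. The 3 shared regions on chromosome 1 reach 309 to 414 with ab21061 and 226 to 450 with sc8558, and the 5 on chromosome 6 lie between 95.5 and 154 with ab21061 and between 64.7 and 126 with sc8558.

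The linker histone H1 binds the DNA between nucleosomes. Of its 6 genes 2 (33.3%, against 12.8% of all genes) had a shared region in their window, H1-1 and H1-3, from 2 distinct regions. The region counted for H1-1 was the one covering H4C2, and that counted for H1-3 lay between H3C6 and H1-3. H1-6, the testis H1 gene, had an sc8558 peak within 10 kb that covered its neighbour H4C3. H1-2, H1-4 and H1-5 had no peak of either list.

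H4, which pairs with H3 in the central tetramer of the nucleosome, had shared regions for 6 of 15 genes (40.0%, against 12.8% of all genes), from 5 distinct regions. Of the 8 shared regions, 4 had an H4 gene as the nearest histone gene, those at H4C2, H4C5, H4C14 and H4C15. The H4C2 region, on chromosome 6 from 26026431 to 26027495, covered the whole of the gene in both lists, with a score of 132 with ab21061 and 102 with sc8558. It ranked 1979 of 7687 with ab21061 and 2727 of 7562 with sc8558. The peak midpoint lay 320 bp downstream of the start with ab21061 and 372 bp with sc8558. The same region fell in the windows of H1-1, H3C1, H4C1, H3C2 and H2AC4.

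The H4C5 region, spanning 26205735 to 26206637, began 714 bp beyond that gene and touched no gene body. It scored 153 with ab21061 (rank 1565) and 64.7 with sc8558 (rank 5206), the widest gap in rank among the 8 regions. It was also counted for H3C4, H2AC7 and H2BC7. At H4C4 an sc8558 peak of score 68.4 had its midpoint 35 bp from the start, and the nearest ab21061 peak was 5.59 kb away. That ab21061 peak, from 26195006 to 26196186, scored 85.0 and overlapped the H1 pseudogene H1-12P. At H4C3 an sc8558 peak from 26103752 to 26104436, score 81.0, covered the whole gene, and the nearest ab21061 peak was 18.2 kb away. No other H4 gene had a peak on the gene itself.

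H3 carries the tail residues on which many regulatory marks are set, and 6 of 13 H3 genes (46.2%, against 12.8% of all genes) had a shared region, from 6 distinct regions. The H3C6 region, covering 26223527 to 26224425 of chromosome 6, scored 149 (rank 1622) with ab21061 and 126 (rank 1971) with sc8558. Its midpoint lay 214 bp upstream with ab21061 and 147 bp upstream with sc8558 of the start whose sequence is printed above. It therefore reached across the promoter window of that annotated start. The annotated span of H3C6 is 3296 bp, against a median of 494 bp for histone genes. Exons were not read, so where the coding part lies relative to this start is not known here. A further region from 26230041 to 26230929 lay 2568 bp beyond H3C6, between H3C6 and H1-3, and scored 95.5 with ab21061 and 98.2 with sc8558. It overlapped no annotated gene. On chromosome 1 an ab21061 peak of score 55.2 had its midpoint 53 bp from the start of H3C13, a gene for the H3.2 form of H3. The nearest sc8558 peak was 16.4 kb away, so this start was marked with ab21061 only.

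H2A and H2B form the dimers on the outside of the tetramer. Shared regions were in the windows of 4 of 17 H2A genes (23.5%) and 4 of 18 H2B genes (22.2%), against 12.8% of all genes. They came from 4 distinct regions in each family. The regions at H2BC4, H4C5 and H3C6 were each counted for both families, so the family shares are not separate results. The region lay on the gene span for 2 of these H2A and H2B genes, H2BC4 and H2BC18. At H2BC4 the region ran from 26122646 to 26123465, and its score was 154 with ab21061 and 119.95 with sc8558. Its midpoint lay 867 bp downstream of the start with ab21061 and 874 bp with sc8558, inside the long annotated span of this gene, and it did not reach the promoter that H2BC4 shares with the divergent gene H2AC6. H2AC1 and H2BC1, the testis pair at the lower end of the chromosome 6 cluster, had no peak. Nor had the divergent pairs H2AC13 with H2BC13 and H2AC14 with H2BC14 in the last block.

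H2BC18 needs separate reading. Its annotated span of 29682 bp overlaps FCGR1A, the high-affinity IgG receptor gene of monocytes and macrophages. A shared region at 149787520 to 149788782 had scores of 414 (ab21061, rank 305) and 450 (sc8558, rank 245), the highest of the 8 regions in both lists. It lay 24.2 kb from the H2BC18 start and inside FCGR1A as well as H2BC18. From the gene table it cannot be told apart which of these genes it belongs to. Near the far end of that span there was an ab21061 peak of score 51.7 and an sc8558 peak of score 92.6, which did not overlap and lay 332 bp apart. Without H2BC18 the counts were 21 genes and 7 shared regions.

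The remaining regions of chromosome 1 formed a mirrored pair. The genes H3C14 and H2AC18 have inverted copies in H3C15 and H2AC19, and the copies are symmetrical around position 149846906. The region from 149830271 to 149831670 lay upstream of H4C14 and scored 369 with ab21061 and 233 with sc8558. The region from 149862073 to 149863668 lay upstream of H4C15 and scored 309 with ab21061 and 226 with sc8558. The ab21061 midpoints were 15.9 kb below and 16.1 kb above the centre, and the sc8558 midpoints 16.1 kb below and 15.9 kb above. When the lower peak was reflected around the centre it overlapped the upper one by 1166 bp with ab21061 and by 1030 bp with sc8558. The sequences of these regions were not compared. Where copies are near-identical a short read can be placed in either, and signal at one copy and at both then cannot be told apart. If counted as a single place, these regions would leave 7 distinct regions. H2AC18 and H2AC19, between the regions, had no peak within 10 kb.

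Relative to gene starts, few histone promoters were reached by a peak. The window from 250 bases before to 50 after a start was overlapped with ab21061 for 3 of 64 histone genes (4.69%), H4C2, H3C6 and H3C13, against 2.48% of all protein-coding genes with an entry. With sc8558 it was 3 of 64 (4.69%), H4C2, H3C6 and H4C4, against 2.59%. A shared region did so for H4C2 and H3C6 only, 3.12% (exact 95% interval 0.381 to 10.8) against 2.12%, so the share of histone promoters was close to the background. Within 1 kb of a start of the 64 genes with an entry lay the midpoints of 4 of 12 ab21061 peaks and 4 of 11 sc8558 peaks. These shares of peaks have no value over the full lists beside them. By gene these were 4 of 64 genes with ab21061 (6.25%, against 3.21% of all genes) and 4 with sc8558 (6.25%, against 3.46%). Shared regions gave 3 genes, H4C2, H3C6 and H2BC4 (4.69%, against 2.35%). The median distance to the nearest start with an entry was 1688 bp for ab21061 peaks and 1632 bp for sc8558 peaks. H4C3 had no entry, so the sc8558 peak covering that gene was measured from the H1-6 start, 4041 bp away. That peak is therefore not among those counted within 1 kb.

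**Figure D3:**
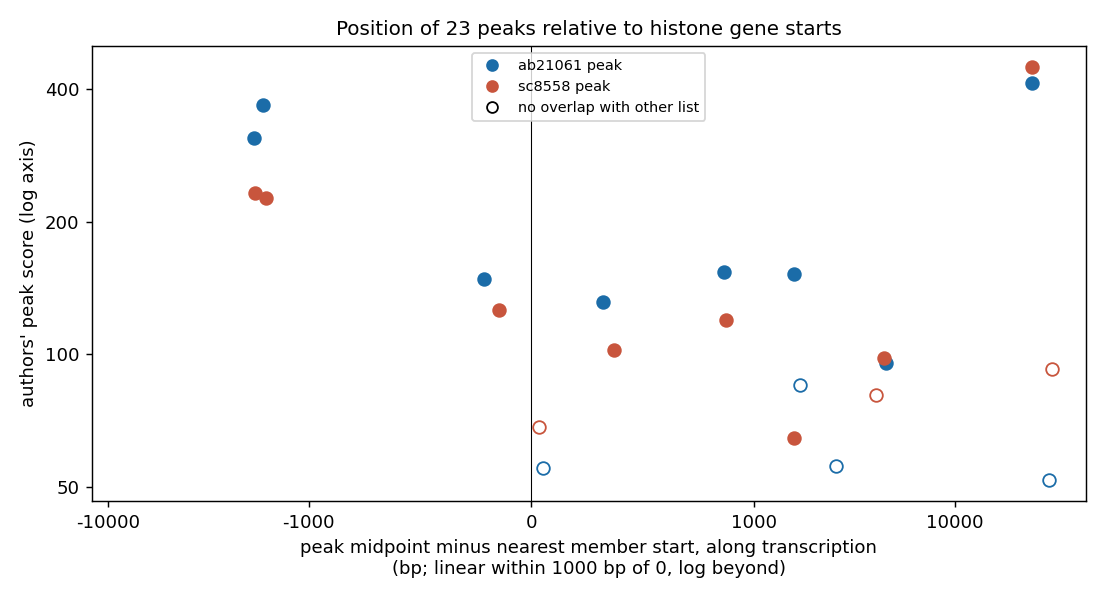
Each of the 23 peaks in the gene windows by the distance of its midpoint from the nearest histone gene start along transcription (bp, horizontal axis, linear within 1000 bp and log beyond) and by the authors' score (vertical log axis). Filled circles overlap a peak of the other list and open circles do not, and starts are those of the 64 genes with an entry. Peaks within 1000 bp of a start score between 55.2 and 154, and the higher ones lie 1632 to 1863 bp upstream of H4C14 and H4C15 or 24.2 kb inside H2BC18.

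The antibodies marked mostly the same places. Of 12 ab21061 peaks in the gene windows 8 were overlapped by an sc8558 peak, 66.7% (exact 95% interval 34.9 to 90.1), and of 11 sc8558 peaks 8 were overlapped, 72.7% (39.0 to 94.0). The full lists gave 63.7% for ab21061 and 65.0% for sc8558, inside these intervals. The peaks without overlap scored 51.7 to 85.0 with ab21061, below every overlapped ab21061 peak in these windows. With sc8558 they scored 68.4, 81.0 and 92.6, each above the lowest overlapped peak at 64.7. Median scores in the gene windows were 140.1 with ab21061 and 102 with sc8558, where the full lists had medians of 82.4 with ab21061 and 81.75 with sc8558. At a score of 100 or more stood 7 of 12 ab21061 peaks (58.3%, against 37.7% of the full list) and 6 of 11 sc8558 peaks (54.5%, against 37.4%). Of the 69 genes, 39 had no peak of either list. An ab21061 peak only was found for 4 (H3C13, H3C12, H2AC17 and H2BC17) and an sc8558 peak only for 3 (H4C3, H1-6 and H2BC6). H4C4 had a peak of each list that did not overlap. The same split was not counted over all protein-coding genes, so these counts have no background beside them and are a description only.

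The higher-scoring shared regions of the chromosome 6 cluster span lay away from its histone genes. The span held 11 shared regions, 5 in histone gene windows and 6 outside. The 5 scored 95.5 to 154 with ab21061 and 64.7 to 126 with sc8558, and the 6 scored 70.5 to 987 with ab21061 and 56.4 to 729 with sc8558. The ranges overlap, and the highest score of the 5 lay below the median of the 6 with each antibody. Of the 6 outside, 4 overlapped a transfer RNA gene and 1 more lay 408 bp from one, whereas none of the 5 inside lay within 3 kb of one. The cluster spans hold 98 transfer RNA genes, and 18 of them (18.4%) had a shared region within 10 kb. How many of them stand in histone gene windows is not given, so this contrast may follow where these genes lie, which was not tested. The highest, from 25961941 to 25963267, lay at the lower end of TRIM38, an interferon-linked ubiquitin ligase gene, 53.8 kb from H1-1. The region just beyond the 10 kb limit, from 27791835 to 27792857, lay 14.6 kb from H2BC13 and scored 70.5 with ab21061 and 114 with sc8558.

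**Figure D4:**
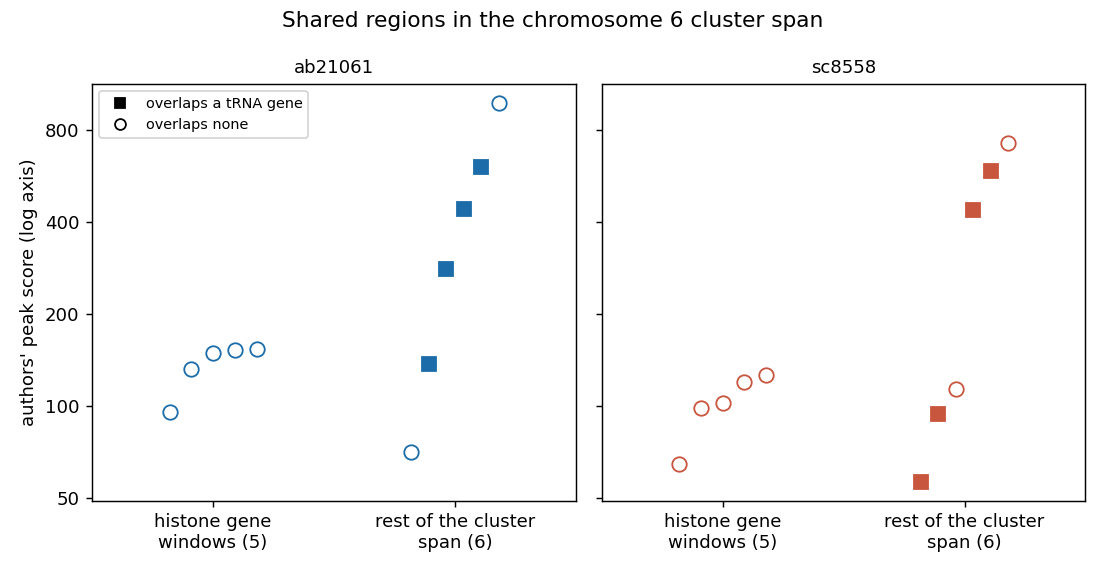
Authors' scores (vertical log axis) of the 5 shared regions in histone gene windows and the 6 in the rest of the chromosome 6 cluster span, for each antibody. Squares overlap a transfer RNA gene and circles do not. The 5 histone regions stay at or below 154 with ab21061 and 126 with sc8558, and the others reach 987 with ab21061 and 729 with sc8558.

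Histone genes outside the clusters and genes that serve histone supply were set beside these, with the 12.8% of all genes as background. Of 27 replication-independent histone genes, which supply variants through the cell cycle, 1 (3.70%) had a shared region within 10 kb. That gene was H2AX, the variant phosphorylated at DNA breaks, with scores of 101 with ab21061 and 64.2 with sc8558. H2AZ1 and H3-5 had an sc8558 peak only. Of 20 histone chaperone genes 1 (5.0%) did, NAP1L4, at 117 with ab21061 and 71.9 with sc8558, and ASF1A and ASF1B had an sc8558 peak only.

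Of 21 genes for histone gene expression factors 5 (23.8%) had a shared region. POU2F1, which encodes the octamer-binding factor OCT1 of H2B promoters, had 4 regions, the highest by ab21061 at 341 with ab21061 and 244 with sc8558. GON4L, whose product is a partner of the factor YY1, had a region scoring 546 with ab21061 and 695 with sc8558. CCNE2 encodes a cyclin E, which with the kinase CDK2 acts on NPAT at the start of DNA replication. Of the 2 regions of CCNE2 the higher by ab21061 scored 136 with ab21061 and 72.0 with sc8558, and the CDK2 region scored 78.7 with ab21061 and 92.3 with sc8558. ERI1, a nuclease that trims the histone stem-loop end, scored 112 with ab21061 and 79.5 with sc8558. NPAT had an sc8558 peak only and E2F1 an ab21061 peak only, and SLBP, CASP8AP2, LSM10 and LSM11 had none. Gene length enters these counts, since the window includes the whole span.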

How the data were processed

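The authors deposited 1 list of peaks per library, with positions and a peak score. The submitters' processing notes name hg38 as the build, Bowtie2 (2.2.9) and, for peaks, MACS (1.4.2). Their options, read filters and control: not given in the sources used here. Scores in the deposited lists are the authors' values from the peak caller and are not comparable in level between libraries. Peaks were called per library, not pooled.

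Positions were counted from 1. A peak or shared region belonged to a gene when its midpoint lay in the span or within 10 kb. Shared regions merged peaks that overlapped by 1 bp or more. RefSeq genes and starts of GRCh38.p14 were used, without exons, so exon, intron and UTR were not assigned. Named were all members with a peak, all shared regions in their windows, the starts with an entry reached by a peak, and the listed genes with a shared region. Other listed genes with a single-antibody peak or none were named after their values were seen. The members and lists were chosen with earlier results of these data known. Exact Clopper-Pearson and Poisson intervals are at 95%. No test was run. The counting was checked on simulated peaks. Software was scipy 1.17.1, networkx 3.6.1, pandas 2.3.3, matplotlib 3.10.9 and numpy 2.4.6 under Python 3.11.15.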

Additional observations from a re-analysis of the deposited data

How the results depend on the processing

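Narrower windows and a score limit moved the counts. Within 1 kb there were 4 genes with a shared region, 5 with an ab21061 peak and 6 with an sc8558 peak, from 4 shared regions, 6 ab21061 peaks and 7 sc8558 peaks. Within 5 kb the genes numbered 11, 17 and 15, while the distinct peaks and regions stayed at 12, 11 and 8. With both lists limited to scores from 100 upward there were 16 genes with an sc8558 peak, 7 ab21061 peaks and 6 sc8558 peaks. Of these, 85.7% of the ab21061 peaks and 100% of the sc8558 peaks were overlapped; fewer peaks enter by construction. Any overlap with the window gave the counts of the midpoint rule, and so did requiring 50% of both peaks to overlap for the results that use overlap. Leaving out H2BC18, chosen after seeing the data, moved no count by more than 1.5 times, and a limit of 0.3 Mb between neighbours left 2 clusters with a shared region. No paired analysis was possible because each antibody had 1 library. Depth is unknown, so a peak missing from a list is not shown to be absent there.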

Other observations

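The cluster spans also hold 22 protein-coding genes that are not replication-dependent histone genes, and 4 of them (18.2%, against 12.8% of all protein-coding genes) had a shared region in the gene or within 10 kb, from 3 distinct regions. Apart from FCGR1A and TRIM38 these were LOC124904411, which overlaps FCGR1A, and HMGN4, which encodes a nucleosome-binding protein. The HMGN4 region scored 607 with ab21061 and 56.4 with sc8558, and it overlapped 4 transfer RNA genes. HFE, the iron-regulating gene mutated in hemochromatosis, lies among the first block of histone genes and had 2 sc8558 peaks and 0 ab21061 peaks in its window, 1 of them the peak on H4C3. BTN2A1, ZNF391 and ZNF184 had an sc8558 peak only, and ABT1 an ab21061 peak only.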
